A study of Mus musculus with 6 samples.

Results

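The epithelial laminins, the integrins that bind them and the collagen of the hemidesmosome were examined in lung metastases of MMTV-Myc mammary tumours. The 9 genes were Lama3, Lama5, Lamb3, Lamc1, Itga3, Itga6, Itgb1, Itgb4 and Col17a1, chosen by symbol with earlier results of these data known. All 9 were on the array, among 12393 genes that had a probe set annotated with 1 symbol. They were covered by 19 of the 22690 probe sets. The probe set with the highest mean over the 6 arrays was taken as the main one of each gene, so that mean is a description here and nothing is read from it.

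The samples were 3 metastases labelled Myc E2F2 KO, from E2F2 knockout mice (KO), and 3 labelled Myc E2F3 Het, from mice heterozygous for E2F3 (Het). All were lung metastases of FVB mice that carried the MMTV-Myc transgene, in which a viral promoter active in mammary epithelium drives Myc. They were taken at endpoint, at an age not given in the sources used here. The titles of the 3 Het arrays share a number, which may stand for 1 mouse, whereas the KO arrays carry 3 different numbers. No metastases of mice with unaltered E2F genes were analysed here. Replicates are numbered in the order in which the samples are listed.

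Laminins are cross-shaped trimers of an alpha, a beta and a gamma chain and are the main organisers of the basement membrane under an epithelium. Lama3 and Lamb3 encode chains of the laminin that anchors basal cells, whereas Lama5 and Lamc1 encode chains of laminins found under most epithelia and endothelia. The integrin chains encoded by Itga3 and Itgb1 pair into a laminin receptor of focal adhesions. The alpha chain encoded by Itga6 pairs with the beta chain of Itgb1 or with that of Itgb4, and the pair with Itgb4 forms the core of the hemidesmosome, which ties keratin filaments to the basement membrane. Col17a1 encodes a transmembrane collagen of the hemidesmosome. In the mammary gland these contacts are made mostly by basal and myoepithelial cells, and luminal cells also hold integrin receptors for laminin.

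Promoters are shown for the integrin genes Itga3 and Itgb1, whose signal was higher in every KO array than in every Het array, and for Lama5 and Col17a1, in which a core motif of the E2F family was found. The sequences are from RefSeq on GRCm38.p6 and run 5′ to 3′ from 250 bases before to 50 bases after the annotated start. Capitals mark the E2F core, searched as TTCCCGC or TTGGCGC on both strands. The Myc motif CACGTG and the AP-1 motif TGANTCA were searched in the same way.
Itga3 promoter, chr11:95076665-95076964, minus strand: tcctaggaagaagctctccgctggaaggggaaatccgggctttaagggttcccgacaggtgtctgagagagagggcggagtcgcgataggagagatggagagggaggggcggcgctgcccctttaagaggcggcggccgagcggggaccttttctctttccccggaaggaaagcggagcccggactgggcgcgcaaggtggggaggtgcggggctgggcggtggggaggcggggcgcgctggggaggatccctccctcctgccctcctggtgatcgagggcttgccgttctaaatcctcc
Itgb1 promoter, chr8:128685404-128685703, plus strand: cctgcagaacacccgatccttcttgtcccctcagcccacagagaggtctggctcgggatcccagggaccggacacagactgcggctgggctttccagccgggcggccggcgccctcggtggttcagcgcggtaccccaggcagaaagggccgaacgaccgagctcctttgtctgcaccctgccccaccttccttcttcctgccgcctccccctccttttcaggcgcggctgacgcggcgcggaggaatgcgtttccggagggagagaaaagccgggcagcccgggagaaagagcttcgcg
Lama5 promoter, chr2:180225810-180226109, minus strand: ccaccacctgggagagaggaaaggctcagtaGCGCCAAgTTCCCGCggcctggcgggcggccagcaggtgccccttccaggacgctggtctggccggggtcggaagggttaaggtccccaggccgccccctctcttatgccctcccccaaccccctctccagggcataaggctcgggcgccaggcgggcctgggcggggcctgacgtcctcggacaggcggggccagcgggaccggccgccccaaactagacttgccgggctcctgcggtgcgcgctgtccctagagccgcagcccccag
Col17a1 promoter, chr19:47691993-47692292, minus strand: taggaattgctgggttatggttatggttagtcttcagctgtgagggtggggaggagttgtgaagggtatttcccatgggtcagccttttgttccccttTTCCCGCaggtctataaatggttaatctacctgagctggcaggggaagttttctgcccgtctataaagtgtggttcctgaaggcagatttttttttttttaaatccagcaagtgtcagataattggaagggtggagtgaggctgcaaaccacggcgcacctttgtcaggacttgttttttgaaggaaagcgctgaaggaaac

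Of the 9 genes, 5 had at least 1 promoter in the table, and Lama3, Lamc1, Itga6 and Itgb4 had none there. Lama5 held the E2F core at both -219 to -213 and -211 to -205 relative to the start, and Col17a1 held it at -152 to -146. Of 32851 promoters of the same length, 6.81% held this core. The Myc motif was in none of the 7 promoters of these genes and in 7.15% of all promoters. An AP-1 motif, found in 7.81% of all promoters, was in the other promoter of Itga3, at 12 to 18. These matches describe the letters in these windows, and no binding was measured.

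Every array had been scaled to a trimmed mean of 500.2, and median signals ran from 137.6 to 164.8. Signal is a linear intensity without a unit, and log2 values are of signal + 16. The tissue matched its label. Signals of the milk protein gene Csn3 were 15725 to 21105 in KO metastases, against 18060 to 20343 in Het metastases. A dimmer Csn3 probe set had a log2 difference, KO minus Het, of -1.57. Of 6 genes in the milk protein list, 5 were lower in KO by mean log2 value. The exception was Wfdc2, at 1.05 (SE 0.74), which is not itself a milk protein gene and was highest in KO replicate 1, at 3258. The summed signal of the 6, Wfdc2 included, was 49041, 51035 and 68497 in KO replicates 1 to 3, against 65216 to 72712 in Het metastases. Those of the luminal keratin gene Krt8 were 9660 to 12113 in KO metastases, against 10637 to 11285 in Het metastases. Lung tissue was also present, since the surfactant gene Sftpa1 ranged from 837.1 to 12713 among KO arrays and from 1900 to 4193 among Het arrays, highest in KO replicate 1. The 3′ to 5′ signal ratio of actin was 2.38 in Het replicate 1, against 1.48 to 1.73 in the rest of the arrays. That of the transferrin receptor was 11.8 there, against 3.25 to 5.15 elsewhere, and that of Gapdh 0.93, against 0.75 to 0.90. In such bulk tissue, fewer cells of a type and less RNA per cell cannot be told apart.

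Genotype was compared in 1 limma fit over 13575 probe sets, with the 3 Het arrays averaged into 1 sample because of their shared title number. A log2 difference is KO minus Het, so a positive value is higher in KO. No member passed an adjusted p of 0.05, and 0.0% of all probe sets tested did so (lowest limma adjusted p = 0.9999 for both). At an unadjusted p under 0.05 limma counted 0 of 9 main probe sets, against 2.25% of all. Whether the KO samples are separate animals is not stated in the labels, and the p-values rest on the spread among them alone. The values below are therefore a description of these metastases. By main probe set, 7 of the 9 genes had a positive log2 difference, beside 47.7% of all probe sets tested. The median of the 9 differences was 0.23, beside -0.016 over all probe sets tested.

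The arrays separated by genotype for 3 integrin chains, in opposite directions. Itga3 and Itgb1 were higher in every KO array than in every Het array, and Itga6 was lower in every KO array. This makes 2 of 9 genes above, where 7.87% of all probe sets tested were, and 1 of 9 below, where 8.89% were. With 3 arrays against 3, a two-sided exact test cannot go below p = 0.1. That limit counts each Het array as a separate sample. It is higher if the 3 Het arrays come from 1 mouse, which could then set all 3 Het values.

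For Itgb1, the beta chain shared by both alpha chains, signals were 1246, 1382 and 1472 in KO replicates 1 to 3 and 845.9, 1048 and 939.5 in Het replicates 1 to 3. The lowest KO array thus lay above the highest Het array. The KO mean was 1366 ± 114 and the Het mean 944.6 ± 101 (SD, n = 3 per group), with a log2 difference of 0.53 (SE 0.22).

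The next brightest Itgb1 probe set gave nearly the same picture, at 1180, 1417 and 1414 in KO and 707.8, 1043 and 1019.9 in Het metastases. Its log2 difference was 0.54 (SE 0.23), and its groups did not overlap either. Het replicate 1, the array with the highest 3′ to 5′ ratios, was the lowest at both probe sets. Without it the difference at the main probe set was 0.45, and the part of these ratios was not tested. A dimmer one, whose name ends in _x_at and so marks probes that may also bind other sequences, was at 0.38 (SE 0.43) with overlapping arrays. The remaining 3 Itgb1 probe sets had mean signals of 11.5 to 27.0, were too dim to be tested and went both ways. One of them was lower in every KO array, with a log2 difference of -1.06, at 19.6, 1.94 and 15.0 in KO and 44.9, 24.7 and 56.0 in Het metastases. With all 6 probe sets averaged, the log2 difference of Itgb1 was 0.11.

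Itga3 encodes the alpha chain of the focal adhesion laminin receptor. It was at 448.2, 414.9 and 384.6 in KO replicates 1 to 3 and at 339.4, 265.3 and 318.2 in Het replicates 1 to 3. The groups stood 45.2 signal units apart at their nearest arrays. The KO mean was 415.9 ± 31.8 and the Het mean 307.6 ± 38.2 (SD, n = 3 per group), a log2 difference of 0.42 (SE 0.24). A probe set too dim to be tested was also higher in every KO array, at 50.7, 64.4 and 88.6 against 28.7, 30.1 and 14.7 in Het metastases. The other dim one, with an _s_at name that marks probes shared between transcripts, overlapped and had a log2 difference of -0.25.

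Itga6, the alpha chain of the hemidesmosome integrin, ran the other way. Its main probe set had signals of 2007, 2489 and 2760 in KO and 3049, 4416 and 3177 in Het metastases. No KO array reached the lowest Het array. The KO mean was 2418 ± 382 and the Het mean 3547 ± 755 (SD, n = 3 per group), with a log2 difference of -0.54 (SE 0.25).

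The other Itga6 probe set disagreed in 1 array. It read 2374, 2567 and 2672 in KO and 1826, 3635 and 3585 in Het metastases, so Het replicate 1 was the lowest array here, while the other 2 Het arrays stayed above all KO arrays. Het replicate 1 is the array with the highest 3′ to 5′ ratios, and the part of these ratios in this value was not tested. The log2 difference of this probe set was -0.18 (SE 0.19), and it was -0.51 without Het replicate 1, -0.014 without Het replicate 2 and -0.024 without Het replicate 3.

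**Figure D1:**
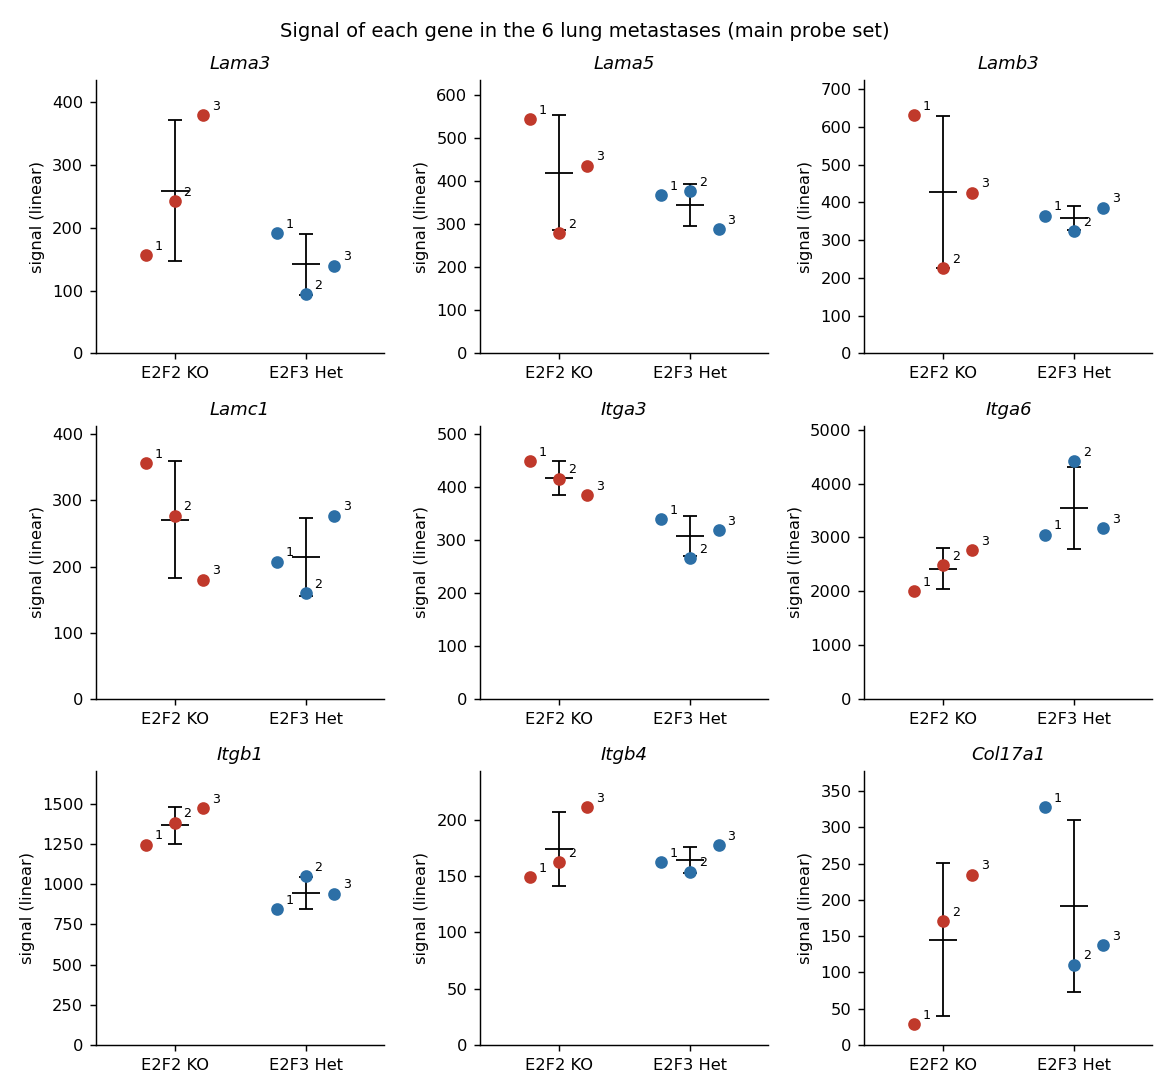
Signal (linear) of the main probe set of each of the 9 genes, with E2F2 KO arrays in red at the left and E2F3 Het arrays in blue at the right. Points are single arrays with their replicate number, and black bars are the mean ± SD of 3 arrays. The groups do not overlap for Itga3, Itga6 and Itgb1, and KO replicate 1 is far below the other arrays for Col17a1, at 28.6.

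The chains were also set against each other within each array. The log2 value of Itgb1 minus that of Itga6, centred on its mean over the 6 arrays so that only changes are compared, was 0.66, 0.50 and 0.44 in KO and -0.49, -0.72 and -0.40 in Het metastases. The group means of this quantity were 0.53 ± 0.11 for KO and -0.53 ± 0.16 for Het (SD, n = 3 per group), a difference of 1.07. For Itga3 minus Itga6, the values were 0.84, 0.43 and 0.17 in KO and -0.14, -1.01 and -0.29 in Het metastases, 0.96 apart on average. Itgb4 minus Itga6 was 0.37, 0.17 and 0.37 in KO and -0.12, -0.72 and -0.064 in Het metastases. Itgb1 minus Itga3, the 2 chains of the focal adhesion receptor, overlapped between the groups, with a mean of 0.053 ± 0.23 for KO and -0.053 ± 0.32 for Het (SD, n = 3 per group). The pattern rests on the main Itga6 probe set. With the other one, Itgb1 minus Itga6 was 0.32, 0.36 and 0.39 in KO and 0.15, -0.54 and -0.67 in Het metastases, still without overlap. Itga3 minus Itga6 and Itgb4 minus Itga6 then overlapped, with Het replicate 1 at 0.49 and 0.51. By main probe sets, Itgb1 and Itga3 were above and Itga6 below in every KO array, so these differences had to separate the groups. They add nothing to the values of the single genes. All pairs were formed after the values were known, so they describe the pattern and are not tested.

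**Figure D2:**
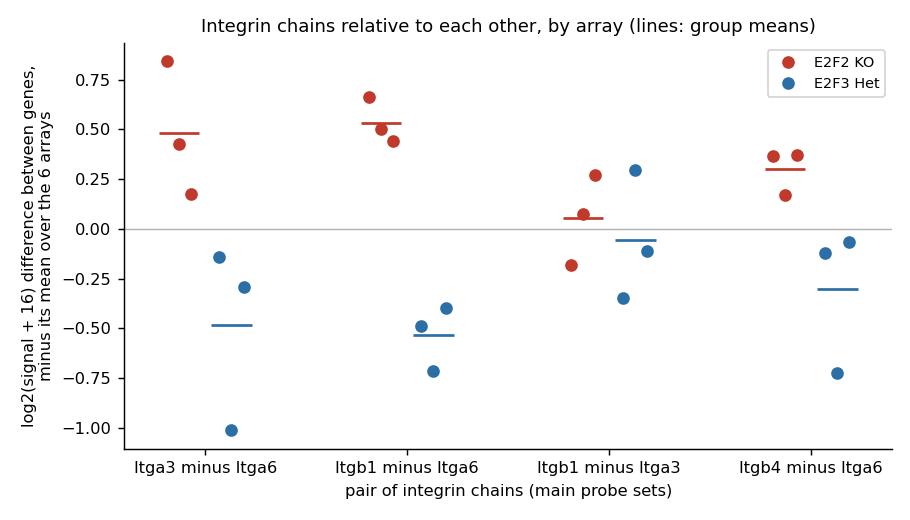
Difference in log2(signal + 16) between integrin chains in each array, minus its mean over the 6 arrays, with E2F2 KO in red and E2F3 Het in blue. Points are single arrays and lines are group means. By main probe sets, the 3 pairs that hold Itga6 lie above 0 in all KO arrays and below 0 in all Het arrays, while Itgb1 minus Itga3 overlaps. For Itga3 minus Itga6 and Itgb1 minus Itga6, the separation follows from that of the single genes. With the other Itga6 probe set, not drawn, only Itgb1 minus Itga6 of these 3 stays free of overlap.

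Itgb4, the beta chain that pairs with Itga6 in the hemidesmosome, did not follow Itga6. It was at 149.1, 162.5 and 211.4 in KO and 162.2, 153.8 and 177.2 in Het metastases, with KO replicate 3 highest and KO replicate 1 lowest. The KO mean was 174.3 ± 32.8 and the Het mean 164.4 ± 11.9 (SD, n = 3 per group). The log2 difference was 0.066 (SE 0.31), and its sign turned to -0.018 with quantile normalization and to -0.070 without KO replicate 3. Of the 9 genes, Itgb4 had the narrowest range over the 6 arrays by main probe set, with its highest signal 1.42 times its lowest.

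Most fibroblast markers separated the groups in the same way as Itgb1 and Itga3. Of 6 listed markers, 5 were tested, and 4 of these were higher in every KO array (Col1a1, Col1a2, Col3a1 and Dcn), beside 7.87% of all probe sets tested. The fifth, Pdgfra, overlapped and had a log2 difference of -0.30. The summed signal of the 6 was 7493, 6871 and 5153 in KO and 4222, 4388 and 4324 in Het replicates 1 to 3. No marker was at 0. Among the KO arrays Itga3 ran in the order of this sum and Itgb1 in the reverse order. Among the Het arrays Itgb1 ran in its order and Itga3 in the reverse order. Fibroblasts carry the Itgb1 chain as well. Simple epithelial markers did not separate, with sums of 41379 to 49810 in KO and 41025 to 47353 in Het metastases. The part of fibroblast content in the integrin values was not tested.

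For all 4 laminin chains the arrays of the groups overlapped. Lama3, the alpha chain of the basal anchoring laminin, had the largest positive difference of the 9 genes. Its signals were 156.0, 242.9 and 379.2 in KO and 191.5, 94.0 and 139.8 in Het metastases. KO replicates 2 and 3 were the 2 highest arrays, but KO replicate 1 lay below Het replicate 1. The KO mean was 259.4 ± 112.5 and the Het mean 141.8 ± 48.8 (SD, n = 3 per group), with a log2 difference of 0.77 (SE 0.49). Leaving out KO replicate 1 gave 1.07, leaving out KO replicate 3 gave 0.47, and the value was 1.29 without both KO replicate 1 and Het replicate 1.

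Lamb3, the beta chain of the same laminin, ordered the arrays differently. It was highest in KO replicate 1 and lowest in KO replicate 2, at 630.1, 225.7 and 425.2 in KO replicates 1 to 3. The Het metastases lay between, at 364.3, 323.0 and 385.3. KO arrays averaged 427.0 ± 202.2 and Het arrays 357.5 ± 31.7 (SD, n = 3 per group). The log2 difference of 0.14 (SE 0.55) turned to -0.19 without KO replicate 1. Lama3 minus Lamb3, centred as above, was -0.94, 1.07 and 0.81 in the KO arrays and 0.10, -0.65 and -0.39 in the Het arrays, so the KO metastases differed from each other in the balance of these chains.

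Lama5, the alpha chain of general epithelial and vascular laminins, had signals of 544.6, 279.1 and 436.5 in KO and 368.6, 377.3 and 289.4 in Het metastases. KO replicate 1 was highest and KO replicate 2 lowest, as for Lamb3. The log2 difference was 0.23 (SE 0.40), and leaving out KO replicate 1 gave 0.026, while leaving out KO replicate 2 gave 0.49. A dimmer Lama5 probe set, at 0.39 (SE 0.30), was also highest in KO replicate 1, with 298.2, 202.2 and 255.1 in KO and 235.4, 170.6 and 161.7 in Het metastases.

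Lamc1, the gamma chain that most laminins share, was at 356.2, 276.7 and 180.2 in KO and at 207.4, 159.8 and 276.9 in Het metastases. The groups overlapped, and KO replicate 1 was again highest. The log2 difference was 0.30 (SE 0.40), and leaving out KO replicate 1 gave 0.087, while leaving out KO replicate 3 gave 0.55. Its other probe set, with a mean signal of 32.4, was too dim to be tested.

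KO replicate 1, highest for Lama5, Lamb3 and Lamc1, was also the array with the highest lung and vessel markers. The summed signal of 6 alveolar type 2 markers was 57570, 30360 and 9963 in KO replicates 1 to 3 and 27061, 16579 and 19767 in Het replicates 1 to 3. That of 8 endothelial markers was 3007, 2408 and 1148 in the KO arrays and 2085, 1332 and 1330 in the Het arrays. No marker of either list was at 0. Lamc1 ran in the order of these sums among the KO arrays, whereas Lama5 and Lamb3 did not, being lowest in KO replicate 2. Among the Het arrays Lamc1 went against them, being highest in Het replicate 3, where both sums were highest in Het replicate 1. The summed signal of 5 airway markers was 25760.5, 6354 and 13511 in the KO arrays and 22145, 17974 and 18081 in the Het arrays. Lama5 and Lamb3 ran in the order of this airway sum among the KO arrays but not among the Het arrays. By main probe set, Itga3 followed the alveolar sums within each group. KO replicate 1 and Het replicate 1 were highest and KO replicate 3 and Het replicate 2 lowest. Between the groups Itga3 did not follow them. KO replicate 3, with the lowest alveolar sum of the 6 arrays, had more Itga3 signal (384.6) than Het replicate 1 (339.4). The part of lung tissue in these values was not tested.

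Col17a1, the hemidesmosome collagen, had the widest range of the 9 genes. Its signals were 28.6, 170.9 and 234.5 in KO and 327.9, 110.6 and 137.1 in Het metastases. The highest array was thus 11.5 times the lowest, and the KO arrays alone spanned 8.21-fold. KO arrays averaged 144.6 ± 105.4 and Het arrays 191.8 ± 118.5 (SD, n = 3 per group). The log2 difference was -0.56 (SE 0.98), and it turned to 0.20 without KO replicate 1 and was -1.04 without KO replicate 3.

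The basal keratin Krt14 ranked the 6 arrays in the same order as Col17a1. Its signals were 546.6, 1800 and 2025 in KO and 3593, 1306 and 1341 in Het metastases. Krt5, its partner in basal cells, was at 43.95, 1907 and 958.6 in KO and 1704, 395.0 and 582.8 in Het metastases. Trp63, the transcription factor that defines basal cells, was at 7.53, 285.0 and 211.9 in KO and 249.9, 83.3 and 160.0 in Het metastases. These 3 genes and Krt17 were lowest in KO replicate 1, but the list was split. Of its 9 basal and myoepithelial markers, 4 were lowest and 4 were highest in KO replicate 1 (the contractile genes Acta2, Myh11, Cnn1 and Mylk). Of these contractile genes, Myh11 and Cnn1 were too dim to be tested. Acta2, the smooth muscle actin, was at 2090, 1984 and 976.7 in KO and 1140, 1111 and 930.5 in Het metastases. Over all 9 the summed signal ran from 3862 to 7312 in KO and from 3466 to 8122 in Het metastases, and none was at 0. The squamous keratin Krt6a was at 48.1, 2210 and 602.6 in KO and 2913, 181.6 and 453.9 in Het metastases. It too was lowest in KO replicate 1 and highest in Het replicate 1. Of the squamous list, 4 markers were tested, and they did not all share this order. Krt6b had the same lowest and highest arrays. Krt16 was lowest in KO replicate 1 but highest in KO replicate 2. Krt10 was lowest in KO replicate 2, at 127.1, with 156.6 in KO replicate 1.

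**Figure D3:**
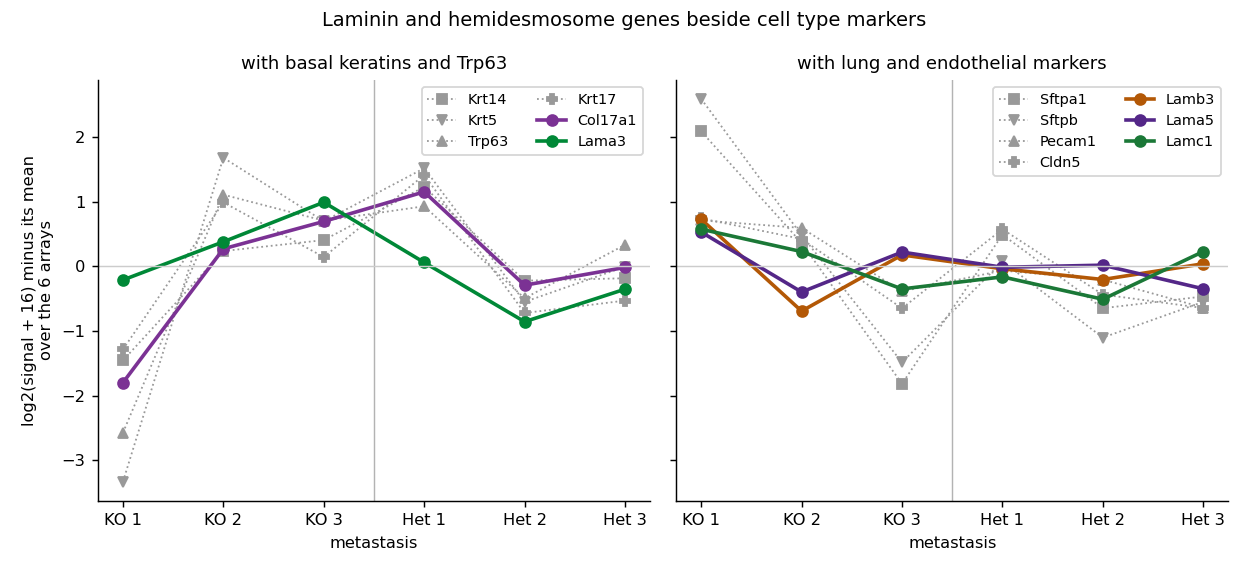
Level of each gene in the 6 metastases as log2(signal + 16) minus its own mean over the 6 arrays, with KO arrays left of the vertical line and Het arrays right of it. Coloured lines are laminin and hemidesmosome genes, and grey dotted lines are 4 basal (left) or lung and endothelial (right) markers. The 4 basal markers drawn are those of the 9 listed that are lowest in KO replicate 1. Another 4 (Acta2, Myh11, Cnn1 and Mylk) are highest there and are not drawn. Col17a1 follows the basal keratins and Trp63 down to -1.80 in KO replicate 1, where Lama3 is at -0.21, and Lamb3, Lama5 and Lamc1 are highest in KO replicate 1.

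Lama3 and Itgb4 did not share the low value of Col17a1 in KO replicate 1. Relative to its own mean over the 6 arrays, Col17a1 was at -1.80 there on the log2 scale, Lama3 at -0.21, Itgb4 at -0.16 and Itga6 at -0.53. Among the KO arrays, these 4 genes nevertheless had 1 order, with KO replicate 3 highest and KO replicate 1 lowest. Among the Het arrays, Col17a1 and Lama3 were highest in Het replicate 1, Itgb4 in Het replicate 3 and Itga6 in Het replicate 2.

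For the 3 genes with the widest range, the genes with the closest pattern over the 6 arrays were taken among 7969 genes, by the root mean square difference of centred log2 values. Col17a1 was closest to Krt14, at 0.20, then to Bnc1, at 0.32, and Sfn, at 0.33, where the median gene stood at 0.95. Bnc1 encodes a zinc finger protein of basal keratinocytes and Sfn an epithelial 14-3-3 protein. Lama3 was closest to Msmo1 (0.12), Idi1 (0.18) and Cyp51 (0.22), all enzymes of sterol synthesis, with the median gene at 0.64. Msmo1 was at 427.6, 693.4 and 1109 in KO and at 473.7, 310.7 and 356.9 in Het metastases, with the same array order as Lama3. Lamb3 was closest to Mlph (0.090), a melanophilin that links vesicles to myosin, Gstk1 (0.16) and Klhl22 (0.17), with the median gene at 0.49. The 3 closest of 7969 genes must lie below the median gene, and only 6 arrays were compared. These matches are therefore a description, and shared regulation was not tested.

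**Figure D4:**
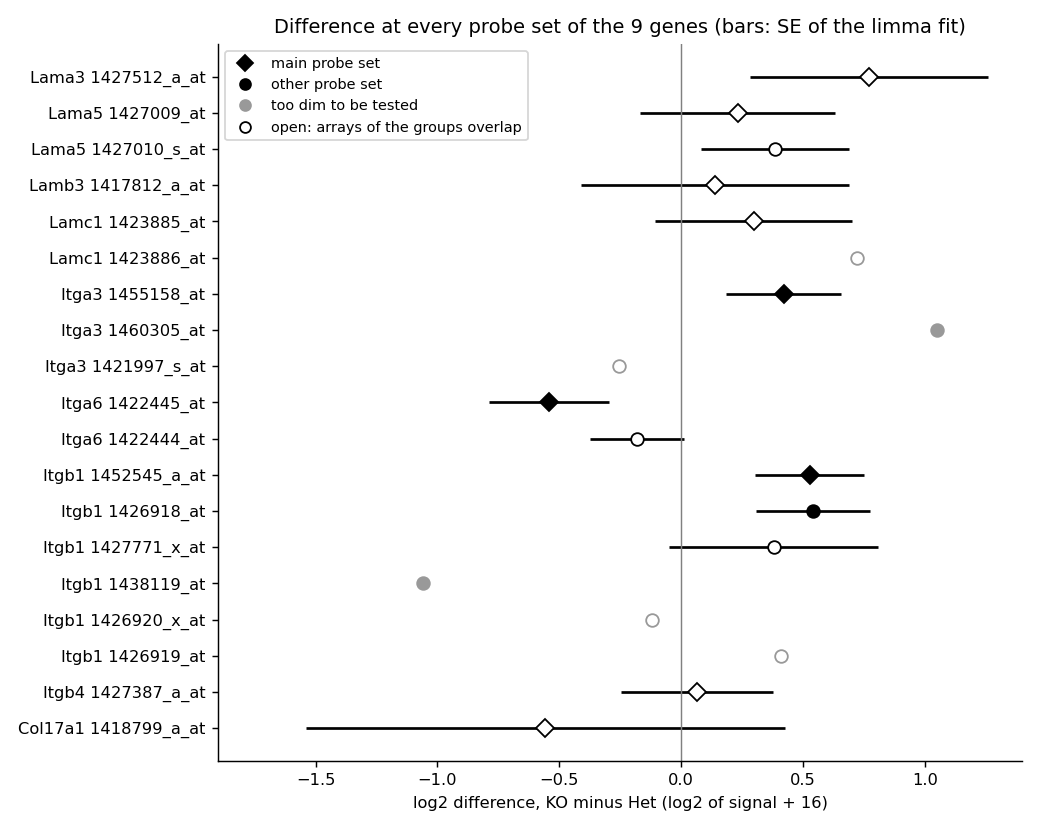
Log2 difference, KO minus Het, at all 19 probe sets of the 9 genes. Diamonds are main probe sets, circles the others, grey marks those too dim to be tested, open symbols mark overlapping groups, and bars are the SE of the limma fit. The 3 filled diamonds are Itga3 at 0.42, Itga6 at -0.54 and Itgb1 at 0.53.

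In all, 13 of the 19 probe sets were bright enough to be tested. The groups did not overlap for 4 of these 13, beside 16.8% of all probe sets tested. Spread was larger among KO than among Het arrays for 6 of the 9 genes on the log2 scale, beside 59.6% of all probe sets tested. The exceptions were the integrin chains Itga3, Itga6 and Itgb1.

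Around these genes, 7 lists of the basement membrane and its adhesions were described, with 56 of 64 genes on the array and 41 tested. None passed (limma adjusted p = 0.9999 at the lowest). Of the 41, 20 had positive and 21 negative log2 differences, with 4 higher and 4 lower in every KO array than in every Het array. These counts are near the shares over all probe sets tested, 7.87% above and 8.89% below.

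The 3 other laminin chains tested had positive differences, with Lama4, a vascular laminin chain, at 0.61 (SE 0.44), Lamb1 at 0.38 (SE 0.56) and Lamb2 at 0.31 (SE 0.47). All were highest in KO replicate 1, with Lamb1 at 1388, 929.6 and 499.8 in KO and 794.8, 607.8 and 600.2 in Het metastases. The groups overlapped for all 3, and their median of 0.38 was 0.043 without KO replicate 1.

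Of 11 basement membrane partners tested, 6 were positive and 5 negative, with a median of 0.25 that turned to -0.014 without KO replicate 1. Col18a1, whose collagen releases endostatin, was at 421.7, 504.8 and 324.8 in KO and 182.3, 150.6 and 136.6 in Het metastases. Its arrays did not overlap, with a log2 difference of 1.32 (SE 0.31), and a dimmer probe set was at 1.35. Col15a1, a related collagen, was at 1.005 (SE 0.59) and Nid1, which links laminin to collagen IV, at 0.56 (SE 0.42). Col4a5, an alpha chain of collagen IV, was lower in every KO array, at 1254, 1218 and 840.0 against 1378, 2289 and 1815 in Het metastases (log2 difference -0.71, SE 0.31). Its dimmer probe set was at -0.61.

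All 5 genes of the hemidesmosome plaque and its keratins had negative differences, with a median of -0.28. These were Krt5 at -0.64 (SE 1.88), Krt14 at -0.54 (SE 0.75), the linker gene Dst at -0.28 (SE 0.27), the linker gene Plec at -0.14 (SE 0.27) and the tetraspanin Cd151 at -0.13 (SE 0.23). Dst was lower in every KO array, at 482.7, 482.4 and 365.0 in KO and 487.4, 655.0 and 489.0 in Het metastases, with KO replicates 1 and 2 just under Het replicate 1. The 2 largest differences, of Krt5 and Krt14, belong to genes whose lowest signal was in KO replicate 1. On the linear scale the mean of Krt5 was higher in KO (970.0) than in Het metastases (893.9). Without KO replicate 1 the median of this list was -0.13, and without Het replicate 1 it was -0.082. Other probe sets of Dst were at 0.020, -0.17 and -0.47.

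Among 5 other receptors of the basement membrane, the syndecans had the largest differences. Sdc4, a proteoglycan of focal adhesions, was at 1428, 819.9 and 848.8 in KO and 623.9, 528.3 and 589.9 in Het metastases. Its arrays did not overlap (log2 difference 0.77, SE 0.38), but its other probe set had the opposite sign, at -0.29. Sdc1 was at 0.62 (SE 0.39), and the laminin receptor Bcam at 0.49 (SE 0.73). The collagen receptor Ddr1 was lower in every KO array (-0.26, SE 0.22). The median of this list was 0.49, and without KO replicate 1 it was -0.022.

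Other integrin chains were mixed, with Itga9 at 0.59 (SE 0.81), Itga8 at 0.44 (SE 0.37), Itgb5 at -0.18 (SE 0.34) and Itgav at -0.034 (SE 0.22), all with overlapping arrays. Of 9 cytoplasmic adhesion genes, 7 were negative, with a median of -0.14. They included the kinase Src at -0.48 (SE 0.31), the integrin-linked kinase Ilk at -0.19 (SE 0.25) and the kindlin Fermt2 at -0.17 (SE 0.27). Parva, a partner of Ilk, was at 0.34 (SE 0.30). Other probe sets of Fermt2 and Parva had the opposite sign, at 0.15 and -0.31, as did others of Itgav, at 0.58, and Itgb5, at 0.0060. Proteases that process laminin were positive in 4 of 4 tested by their brightest probe set. Bmp1, which trims laminin chains, was at 0.78 (SE 0.48), Mmp14 at 0.44 (SE 0.32), Mmp2 at 0.28 (SE 0.27) and Htra1 at 0.13 (SE 0.32), with another tested probe set of Htra1 at -0.094. Mmp14 was higher in every KO array, at 404.5, 614.1 and 414.0 in KO and 355.9, 324.4 and 345.2 in Het metastases.

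**Figure D5:**
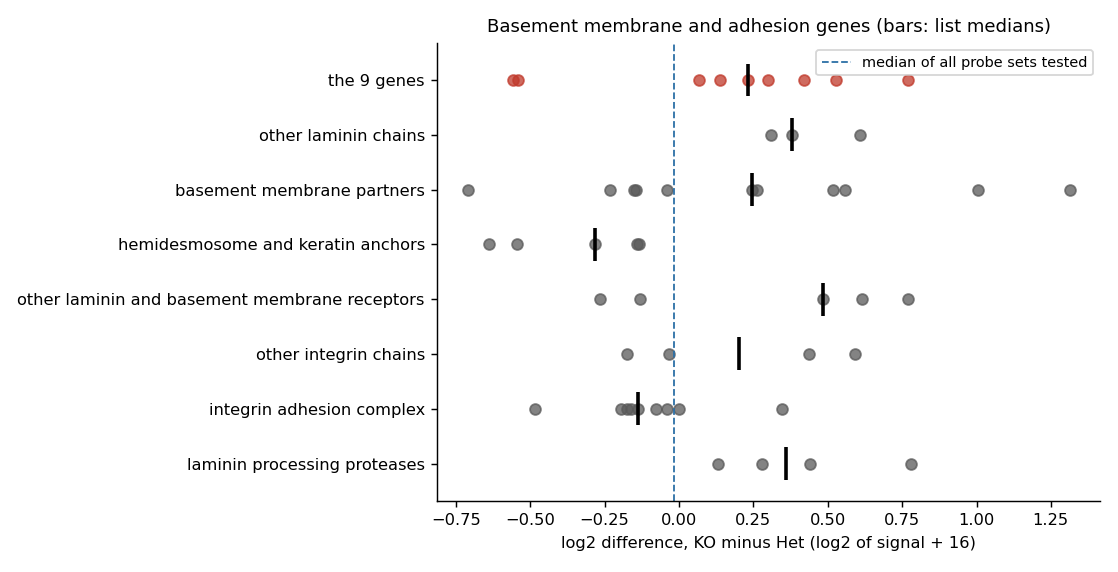
Log2 difference, KO minus Het, of the 9 genes (red, main probe sets) and of the tested members of 7 lists (grey, brightest probe set of each gene). Black bars are list medians and the dashed line is the median of all probe sets tested, -0.016. The 5 genes in the list of hemidesmosome and keratin anchors all lie below 0, with a median of -0.28. Of the hemidesmosome genes drawn in red, Itgb4 lies above 0, at 0.066, and Itga6 and Col17a1 lie below.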

How the data were processed

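RNA of 6 lung metastases was hybridised to Affymetrix mouse arrays. The deposited values are linear intensity values per probe set. The submitters' processing notes name MAS5 and Affymetrix Expression Console, without versions, and equal trimmed means show that the authors scaled the arrays. No detection calls were at hand, so dim values may be background. The number of arrays limits the precision.

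Genes were named by GEO's platform annotation. The 64 controls and the dimmest 40% of probe sets, by mean, were left out, and 13575 were tested on log2(signal + 16), which understates the change of dim genes. limma 3.58.1 in R 4.3.3 (lmFit, eBayes with trend) compared 3 KO samples with the averaged Het sample, assumed to vary like a KO sample, with Benjamini-Hochberg adjustment over all 13575 and a threshold of 0.05. SE is from this fit. The procedure was tested on simulated data.

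The members and lists were chosen with earlier results of these data known. Named were all members, up to 4 genes per pathway list by size of difference, up to 2 of the brightest per marker list, and the 3 nearest genes of 3 members. Krt5, Krt10, Krt16, Krt17, Trp63, Myh11, Cnn1, Mylk, Wfdc2, Col1a1, Dcn, Pdgfra, Cd151 and the pairs of chains were taken after their values were seen. Alternatives covered the unit of replication, pseudocount, filter, normalization, probe set and each array left out.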

Additional observations from a re-analysis of the deposited data

How the results depend on the processing

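Under each of the 15 alternatives, 0 probe sets overall and 0 of the member genes with a value passed the limma threshold, and 0 genes of the 7 lists passed wherever single probe sets were used. Values were had for 5 of the 9 genes with 60% of probe sets left out and, where probe sets were averaged, for the 5 that had several. When every array counted as its own sample, 1395 probe sets and 3 of the 9 genes (Itga3, Itga6 and Itgb1) had an unadjusted p under 0.05, against 305 and 0 with the Het arrays averaged. The lowest limma adjusted p of a member was then 0.355, for Itgb1, and it was 0.966 where the title number formed a random block. The number of probe sets at an unadjusted p under 0.05 ran from 156 without KO replicate 2 to 965 without KO replicate 3 among the fits with 1 array left out, and 124 genes had one when probe sets were averaged per gene. Of 127 values of the 9 genes under alternatives, 121 kept their direction. Those that turned were Itgb4 with quantile normalization (-0.018), Lamb3 and Col17a1 without both KO replicate 1 and Het replicate 1 (-0.18 and 0.64), a setting chosen after seeing the data, and 3 values with 1 array left out. Leaving out 1 array at a time, Itgb4 ran from -0.070 to 0.16, Lamb3 from -0.19 to 0.52 and Col17a1 from -1.04 to 0.20. The cause was not tested. Over all alternatives Itga3 stayed between 0.32 and 0.49, Itga6 between -0.64 and -0.36 and Itgb1 between 0.11 and 0.60. The lowest value of Itgb1 came with all of its probe sets averaged, dim ones included. These ranges leave out the other Itga6 probe set taken by itself. It was at -0.18 in the main fit, and ran from -0.51 without Het replicate 1 to -0.014 without Het replicate 2. No paired analysis was possible because the replicate numbers only follow the order of the samples and pair nothing.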
